A study of Rattus norvegicus with 6 samples.

Results

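Matrix metalloproteinases (Mmp genes), ADAMTS proteases and their inhibitors, the TIMPs, were followed in the bulk RNA of rat mesenchymal stem cells (MSC) of different skeletal origin. Members were all rows of the gene count table whose symbol is an Mmp, Adamts or Timp gene name followed by its number, which gave 45 of 30498 genes: 23 Mmp, 19 Adamts and 3 Timp genes. The series compared 3 libraries labelled rcMSC, from marrow of cranial bone, with 3 labelled rbMSC, from marrow of the femur and tibia, all of wild-type genotype. No treatment, strain, age, sex or passage is given in the labels, and nothing states whether replicates stem from different animals or cultures. The p-values below therefore measure only how these libraries vary, and that variation may be technical.

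Matrix metalloproteinases are zinc-dependent enzymes that cut collagens, proteoglycans and other proteins outside the cell, and most are made as inactive precursors. ADAMTS enzymes are secreted relatives with thrombospondin repeats, some of which cut aggrecan and versican while others trim the ends of procollagens. TIMPs bind to the active site of many of these enzymes and block it. In bone marrow stroma the balance of protease and inhibitor takes part in matrix turnover and cell migration. RNA levels do not measure enzyme activity, which also depends on secretion and activation.

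Libraries held between 21340290 and 26928079 counts, and the members together took 0.485% to 0.493% of the counts in rbMSC and 0.637% to 0.662% in rcMSC. The library rcMSC replicate 3 stood apart from the other rcMSC libraries: over genes, its counts differed from theirs by a chi-square of 42.0 and 42.8 per gene, against 2.69 to 3.16 for the other pairs within a group. All 8 MSC markers (such as Thy1, Eng and Pdgfrb) were expressed in both groups, but not at equal levels. In the edgeR test described below, 3 were called higher and 5 lower in rcMSC (100% called, against 45.8% of all genes). All 7 neutrophil markers had at most 10 counts over the 6 libraries, and all 4 lymphoid markers found in the table likewise. Macrophage markers were present, at a summed 966 to 970 CPM (counts scaled to one library size) in rbMSC and 578 to 619 in rcMSC. In bulk RNA, fewer cells of a type and less RNA per cell cannot be told apart.

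Of the 45 members, 36 had enough counts to be tested with edgeR, and 27 of these (75%) passed an adjusted p of 0.05, against 45.8% of all 14836 genes tested. Higher levels in rcMSC were found for 14 members (22.6% of all genes were called higher), and lower levels for 13 (23.2% of all genes). At least 2-fold changes made up 9 of the higher and 8 of the lower calls, where 5.76% and 8.53% of all genes changed by that much. The groups of libraries did not overlap in 30 of the 36 members, against 57.1% of all genes. The median log2 fold change (rcMSC over rbMSC) was 0.06 over the tested members and 0.02 over all genes. Mmp24, Mmp25 and Adamts16 passed the low-count filter through the group where they were higher; of the 33 members that passed it in both groups, 24 were called. Leaving out rcMSC replicate 3 raised the calls from 27 to 31 members, and those over the whole table from 6796 to 9070 genes.

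Levels are given as RPKM, CPM per kilobase of exon with TMM-scaled library sizes, so that genes of different length can be set side by side. They spanned several orders of magnitude, as the plot of member levels by library shows. Mmp2, Mmp14 and Adamts1 stood at 100 RPKM or more in at least 1 group, and 13 members at 10 to 100. A further 12 reached 1 to 10 RPKM and 8 tested members stayed under 1. The 9 members with too few counts were Mmp1, Mmp1b, Mmp7, Mmp10, Mmp20, Mmp21, Mmp27, Adamts18 and Adamts19. Mmp1 and Mmp1b, which code for interstitial collagenases, had no count in any library. Adamts18 was counted 8 times over the rcMSC libraries and 0 times over the rbMSC libraries.

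**Figure D1:**
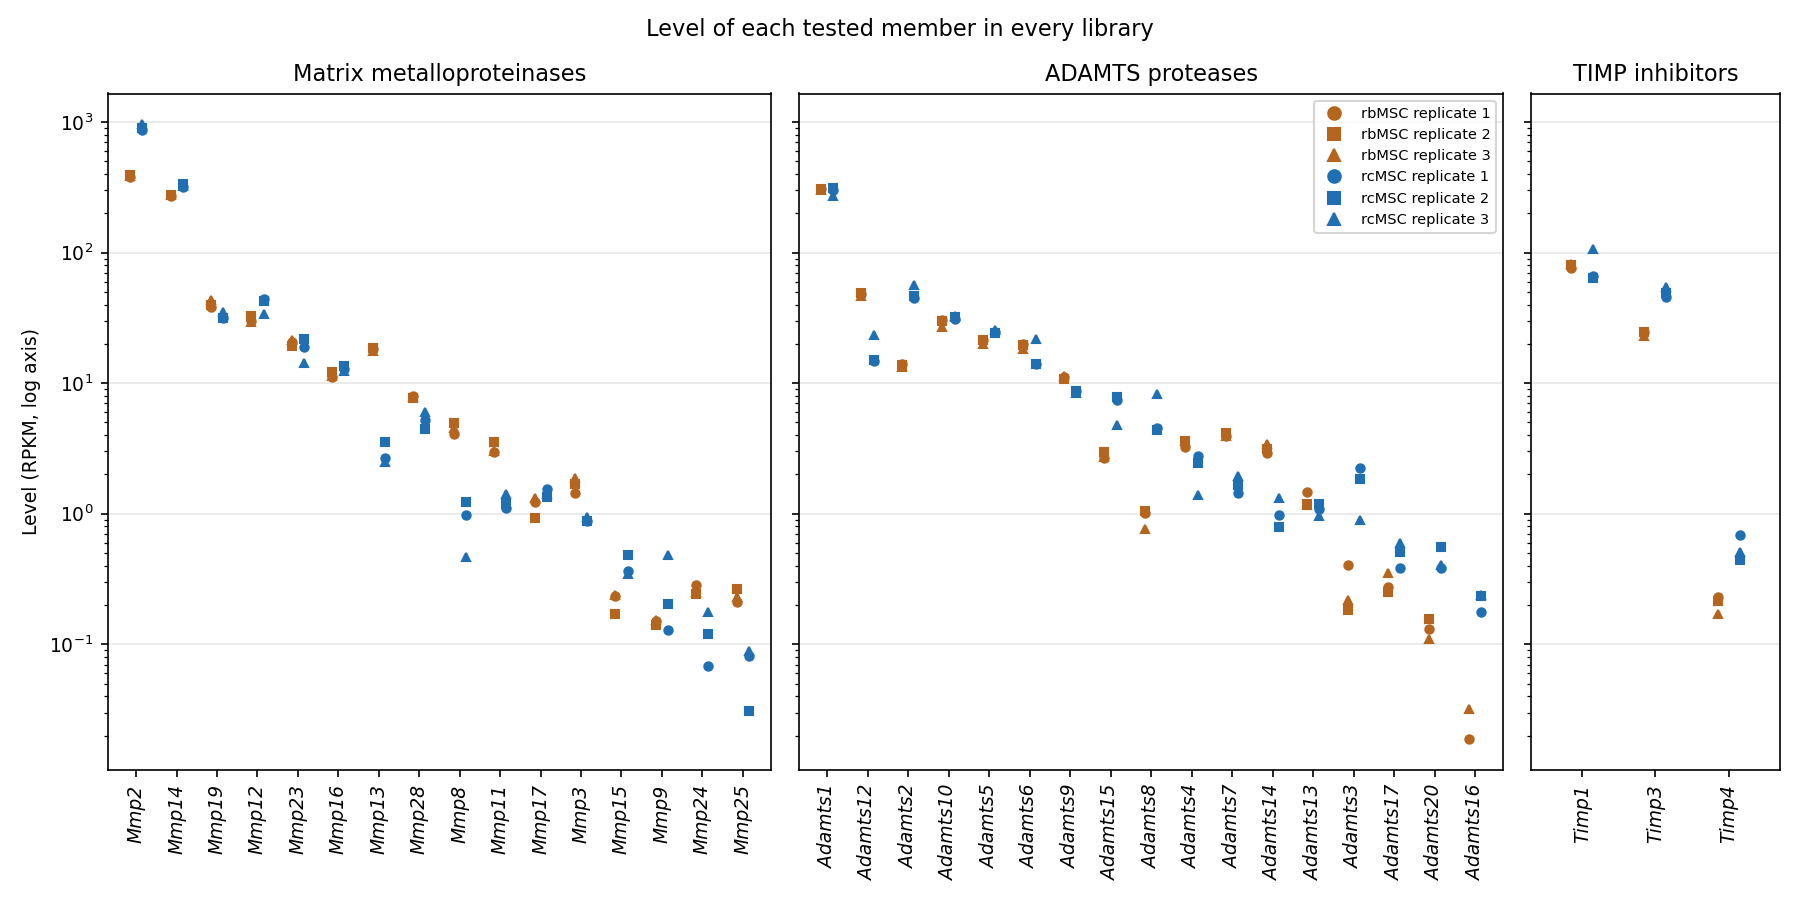
Level of the 36 tested members in each library (RPKM, log axis), ordered by mean within each family; brown points are rbMSC, blue points rcMSC, and a library at 0 is not drawn. Mmp2, Mmp14 and Adamts1 lie above all other members in every library.

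Mmp2 and Mmp14 led the metalloproteinases. Mmp2 (ENSRNOG00000016695, chromosome 19, 14154657 to 14182870 in mRatBN7.2) codes for gelatinase A, which cuts denatured collagen and basement membrane collagen. Its rbMSC libraries (replicates 1, 2 and 3, here and below) had 382, 390.4 and 385 RPKM, and the rcMSC libraries 874, 902 and 961. All rcMSC libraries thus lay above all rbMSC libraries, with means of 913 ± 44.3 and 386 ± 4.49 (SD, n = 3 each). The level was 2.37-fold higher in rcMSC (1.24 on the log2 scale, SE 0.060, edgeR adjusted p = 1.03e-07).

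Mmp14 (ENSRNOG00000010947, chromosome 15, 27887727 to 27899864) codes for the membrane-anchored enzyme that activates the Mmp2 precursor at the cell surface. It had 270.2, 275 and 274 RPKM in rbMSC and 317, 336 and 322 in rcMSC. Groups did not overlap, but the step was small, 1.19-fold (log2 fold change 0.25, SE 0.054, edgeR adjusted p = 0.00368). Mmp2 made up 48.2% ± 0.208 of the summed Mmp level in rbMSC and 67.3% ± 1.48 in rcMSC, while the share of Mmp14 was 34.2% ± 0.0883 and 24.0% ± 0.817. All other Mmp genes together came to 141 ± 3.26 RPKM in rbMSC and 118 ± 6.87 in rcMSC.

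Of the 6 membrane-type genes, 2 were higher and 2 lower in rcMSC (66.7% called, against 45.8% of all genes). Apart from Mmp14, only Mmp16 exceeded 10 RPKM, with 11.2 to 12.1 in rbMSC and 12.4 to 13.5 in rcMSC. Its log2 fold change was 0.16 (edgeR adjusted p = 0.0845), and it passed without rcMSC replicate 3 (0.18, edgeR adjusted p = 0.00986). Mmp17 stood at 0.924 to 1.31 RPKM in rbMSC and 1.35 to 1.55 in rcMSC (log2 fold change 0.32, edgeR adjusted p = 0.153). Mmp15, Mmp24 and Mmp25 were all under 0.5 RPKM.

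Mmp25, which codes for a membrane-type enzyme with a lipid anchor, had 0.209, 0.266 and 0.232 RPKM in rbMSC and 0.0814, 0.0309 and 0.0893 in rcMSC (log2 fold change -1.80, edgeR adjusted p = 0.00569). Mmp24 had 0.284, 0.242 and 0.25 RPKM in rbMSC and 0.068, 0.12 and 0.177 in rcMSC. Its call (log2 value -1.09, edgeR adjusted p = 0.0319) did not pass without any 1 library other than rcMSC replicate 3 (adjusted p = 0.0731 to 0.112). Mmp15 rose by 0.89 (edgeR adjusted p = 0.0261), and that call was lost without any rbMSC library (adjusted p = 0.0561, 0.0919 and 0.0505) and without rcMSC replicate 2 (0.104).

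A run of 10 Mmp genes lies within 357.9 kb of chromosome 8 (4497960 to 4855902 in mRatBN7.2), with no other gene of the table inside it. It holds the collagenases Mmp13, Mmp8, Mmp1 and Mmp1b, the stromelysins Mmp3 and Mmp10, the macrophage elastase Mmp12, and Mmp27, Mmp20 and Mmp7. Only 4 of the 10 had enough counts for a test, and they moved in opposite directions: Mmp13, Mmp8 and Mmp3 fell in rcMSC, while their neighbour Mmp12 rose.

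The stretch just upstream of the start site is shown for 7 of these genes, because neighbouring members with the same short element differed in level and direction. Sequences are from RefSeq (build GRCr8, plus strand), from base -100 to base -21 relative to the start. Capitals mark TGAGTCA or its reverse complement TGACTCA, the letters recognised by AP-1, a factor of the Fos and Jun proteins.
Mmp13: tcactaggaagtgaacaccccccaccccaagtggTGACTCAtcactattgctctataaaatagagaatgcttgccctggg
Mmp12: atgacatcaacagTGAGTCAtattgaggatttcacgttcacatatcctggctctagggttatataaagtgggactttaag
Mmp3: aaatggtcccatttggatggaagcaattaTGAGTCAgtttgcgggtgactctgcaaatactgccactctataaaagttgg
Mmp1: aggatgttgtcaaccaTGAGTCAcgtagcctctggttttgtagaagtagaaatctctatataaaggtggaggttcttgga
Mmp10: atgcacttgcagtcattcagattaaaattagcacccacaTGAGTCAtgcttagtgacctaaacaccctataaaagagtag
Mmp8: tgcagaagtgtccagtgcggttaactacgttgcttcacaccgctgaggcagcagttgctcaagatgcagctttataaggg
Mmp7: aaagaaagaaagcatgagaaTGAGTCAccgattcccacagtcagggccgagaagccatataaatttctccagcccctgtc

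In GRCr8 these stretches are chr8:12782729-12782808 for Mmp13, chr8:12866552-12866631 for Mmp12 and chr8:12925181-12925260 for Mmp3. Those of Mmp1, Mmp10, Mmp8 and Mmp7 are chr8:12943353-12943432, chr8:12974607-12974686, chr8:13008790-13008869 and chr8:13132943-13133022. The AP-1 letters began 66 bases upstream of the start in Mmp13, 87 in Mmp12, 71 in Mmp3, 84 in Mmp1, 61 in Mmp10 and 80 in Mmp7. RefSeq windows of 300 bases (250 before to 50 after the start) were at hand for 34 of the 45 members, including all 10 of the cluster. The members without a window, which were not searched, all lay outside the cluster. They were Mmp2, Mmp9, Mmp14, Mmp16, Mmp17, Mmp19, Adamts5, Adamts8, Adamts15, Adamts16 and Adamts19. The AP-1 letters were in 6 of the 10 cluster genes and in 0 of the 24 other members with a window, against 4.63% of 33469 windows of all genes. TGTGGT or its reverse complement ACCACA, the letters read by Runx factors, were in 2 of the 34 members (Mmp13, 149 bases upstream, and Mmp1b) and in 17.3% of all windows.

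Among genes with the AP-1 letters, then, were Mmp13 and Mmp3, which fell, Mmp12, which rose, and Mmp1, Mmp7 and Mmp10, which were barely or not detected. Mmp8 fell without them in this window. A match of letters is a description and does not show that a factor was bound.

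Mmp13 (ENSRNOG00000008478, 4497960 to 4508239), the collagenase of growth plate cartilage and bone, had 18.4, 18.6 and 17.5 RPKM in rbMSC and 2.69, 3.52 and 2.47 in rcMSC. The highest rcMSC library was far below the lowest rbMSC library. This made it 6.27-fold higher in rbMSC (-2.65 on the log2 scale, edgeR adjusted p = 6.37e-08). Several marker lists of other cell types were also lower in sum in rcMSC. Osteoblast markers summed to 749 to 771 CPM in rbMSC and 122 to 333 in rcMSC, with 1 of 6 tested higher (Runx2) and 4 lower. Of the lower ones, Sp7, Ibsp and Dmp1 passed the low-count filter only through rbMSC, where they were higher. Most of the rbMSC sum was Spp1, at 632, 648 and 653 CPM in rbMSC and 33.5, 32.4 and 246 in rcMSC (edgeR adjusted p = 0.103). Chondrocyte markers summed to 420.3 to 432 and 98.3 to 143 CPM, with 1 of 4 tested higher (Col2a1) and 3 lower, and in rbMSC were mostly Acan. Pericyte markers summed to 842 to 853 and 91.8 to 179 CPM, with 5 of 5 tested lower and a median log2 fold change of -4.17. Among these, Rgs5 passed the low-count filter only through rbMSC, where it was higher. Shares called were 83.3% for osteoblast, 100% for chondrocyte and 100% for pericyte markers, against 45.8% of all genes. The part of these lists in the Mmp13 result was not tested.

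Mmp8 (ENSRNOG00000009907, 4724029 to 4733520), known as the neutrophil collagenase, had 4.06, 4.96 and 4.56 RPKM in rbMSC and 0.981, 1.23 and 0.47 in rcMSC. This made it 5.03-fold higher in rbMSC (-2.33 on the log2 scale, SE 0.26, edgeR adjusted p = 6.89e-05). Neutrophil markers summed to 0.04 to 0.12 CPM in every library, and S100a8, Elane and Camp had no count. Mmp3, a stromelysin that also activates other precursors, had 1.43, 1.70 and 1.88 RPKM in rbMSC and 0.876, 0.886 and 0.941 in rcMSC (log2 fold change -0.90, edgeR adjusted p = 0.0045). Mmp3 and Mmp10 are close relatives, and the sources used here do not state how reads shared by such relatives were counted.

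Mmp12 (ENSRNOG00000030187, 4581785 to 4599611), the elastase best known from macrophages, had 29.7, 32.8 and 29.7 RPKM in rbMSC and 44.1, 42.4 and 34.1 in rcMSC. Groups did not overlap and the fold was 1.31 (log2 fold change 0.39, SE 0.096, edgeR adjusted p = 0.00791). Of 9 tested macrophage markers, 0 were called higher and 6 lower in rcMSC, and 3 did not pass. The share called was 66.7%, against 45.8% of all genes. Cd14 went the same way as Mmp12 but did not pass (log2 fold change 0.19, edgeR adjusted p = 0.059). Ptprc, which marks cells of the blood lineage, had 136 CPM in rbMSC and 45.6 in rcMSC. The part of this list in the Mmp12 result was not tested. Exons of Mmp12 share 157 bases with those of Mmp1b on the other strand. The plot of the cluster shows its read counts in order along the chromosome.

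**Figure D2:**
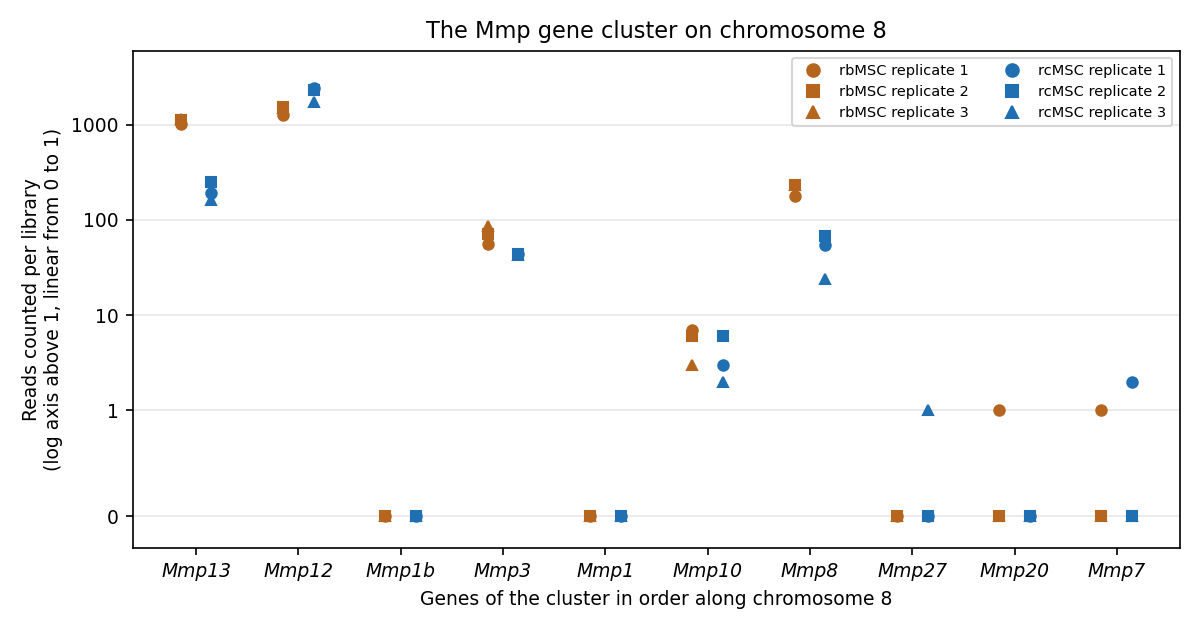
Reads counted for the 10 Mmp genes of the chromosome 8 cluster in each library (log axis above 1, linear from 0 to 1), in order along the chromosome; counts are not scaled to library size. Mmp13, Mmp3 and Mmp8 are lower in rcMSC (blue) than in rbMSC (brown), Mmp12 is higher, and Mmp1 and Mmp1b are at 0.

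Of the remaining Mmp genes, Mmp11, Mmp19 and Mmp28 fell. Mmp11 (ENSRNOG00000028344, chromosome 20, 12730836 to 12739628), stromelysin 3, is a stromal enzyme that is activated inside the cell by furin. It had 3.00, 3.54 and 3.02 RPKM in rbMSC and 1.11, 1.19 and 1.41 in rcMSC (log2 fold change -1.37, SE 0.16, edgeR adjusted p = 6.09e-05). Mmp19 had 38.1, 39.7 and 43.4 RPKM in rbMSC and 31.5, 31.4 and 35.3 in rcMSC, so that the ranges were close but separate (log2 fold change -0.30, edgeR adjusted p = 0.00586). Mmp28 fell by 0.58 on the log2 scale (edgeR adjusted p = 0.00119).

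Mmp23 had 20.8, 19.3 and 21.6 RPKM in rbMSC and 19.0, 21.7 and 14.3 in rcMSC, and its groups overlapped (log2 fold change -0.17, edgeR adjusted p = 0.344). Mmp9, gelatinase B, which osteoclasts and neutrophils make in quantity, was near the limit of detection. It had 0.14 to 0.154 RPKM in rbMSC and 0.13, 0.203 and 0.480 in rcMSC (log2 fold change 0.84, SE 0.49, edgeR adjusted p = 0.188). Its value was 0.16 when rcMSC replicate 3 was left out. Of 5 tested osteoclast markers, 1 was higher in rcMSC (Ctsk, 60.7 and 94.0 CPM in the group means) and 2 were lower (Itgb3 and Tnfrsf11a). That share, 60%, compares with 45.8% of all genes. The 8 listed summed to 88.4 to 91.5 CPM in rbMSC and 94.4 to 116 in rcMSC, with Calcr at 0, and their part in the Mmp9 values was not tested.

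Of 17 tested Adamts members, 8 were higher and 5 lower in rcMSC (76.5% called, against 45.8% of all genes). They are shown with the other members in the plot of fold changes. Adamts1 (ENSRNOG00000001607, chromosome 11, 24931761 to 24941103), which cuts aggrecan and versican, was by far the most abundant. Its level was 308, 305 and 303 RPKM in rbMSC and 302, 310 and 272 in rcMSC. The groups overlapped (log2 fold change -0.05, SE 0.063, edgeR adjusted p = 0.527), and the value without rcMSC replicate 3 was 0.0025 (adjusted p = 0.948).

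**Figure D3:**
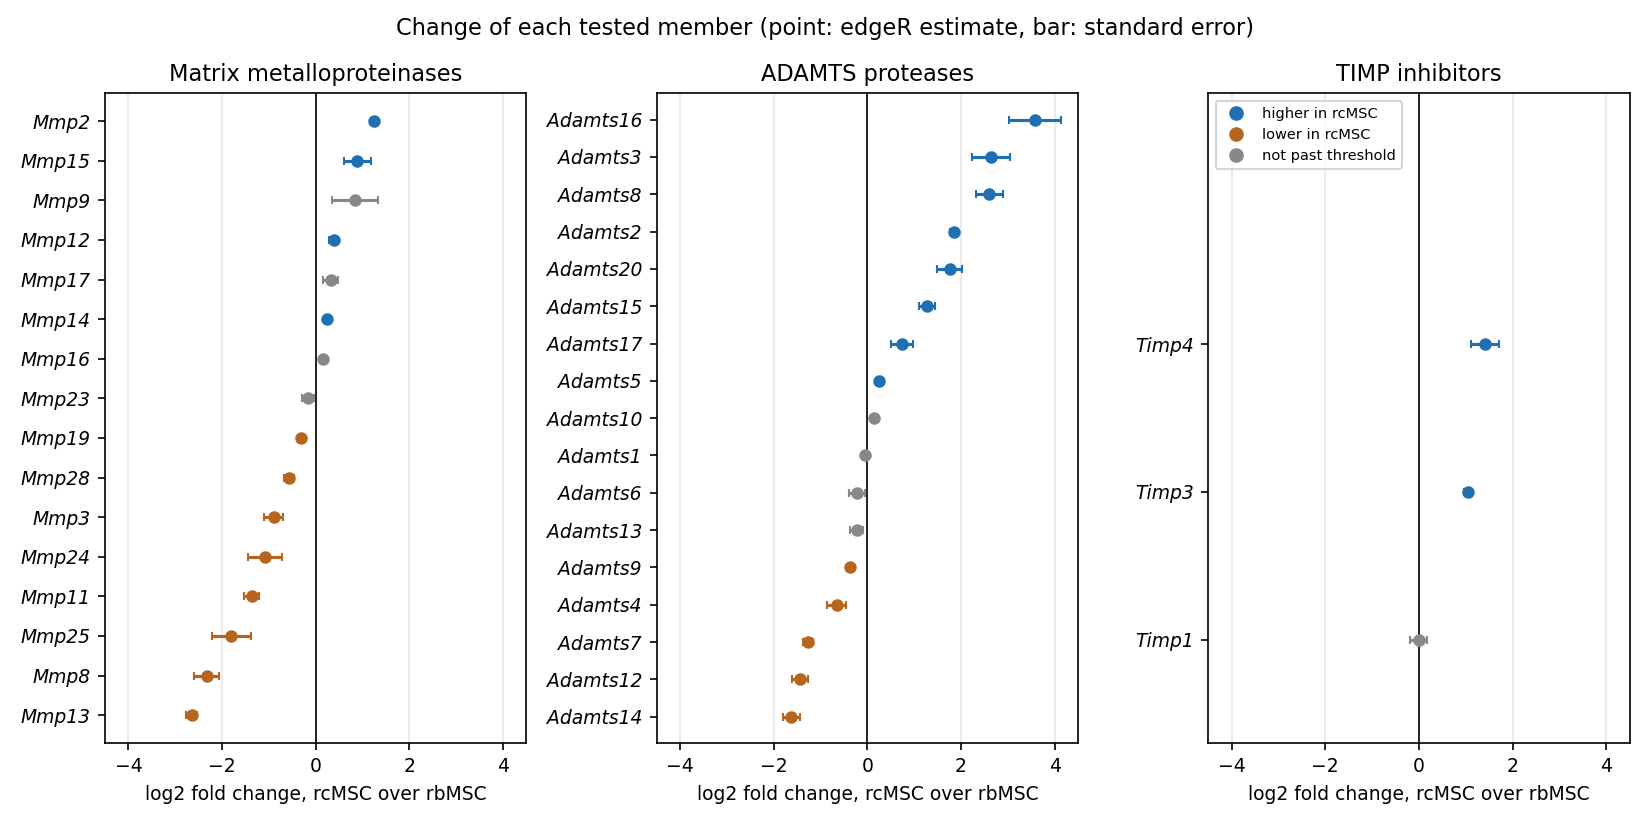
Log2 fold change of rcMSC over rbMSC for the 36 tested members (points, edgeR) with their standard errors (bars); blue, brown and grey mark members called higher, called lower and not past the threshold. The Adamts values run from -1.62 (Adamts14) to 3.58 (Adamts16) and the Mmp values from -2.65 (Mmp13) to 1.24 (Mmp2).

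Of the hyalectanases, the ADAMTS enzymes that cut large proteoglycans such as aggrecan, 4 of 7 were higher and 2 lower. Their share called was 85.7%, against 45.8% of all genes. Adamts8 (ENSRNOG00000005574) and Adamts15 (ENSRNOG00000009892) lie head to head on chromosome 8, 17.9 kb apart (29349114 to 29368404 and 29307865 to 29331249), and both rose. Adamts8 had 1.01, 1.05 and 0.77 RPKM in rbMSC and 4.51, 4.39 and 8.23 in rcMSC, a 6.07-fold step (log2 fold change 2.60, SE 0.28, edgeR adjusted p = 0.000157). Adamts15 had 2.66, 2.95 and 2.70 RPKM in rbMSC and 7.38, 7.79 and 4.82 in rcMSC (log2 fold change 1.27, SE 0.17, edgeR adjusted p = 0.00038). In rcMSC replicate 3 Adamts8 was the highest of the group and Adamts15 the lowest.

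Adamts5, the main aggrecanase of mouse cartilage and the neighbour of Adamts1, had 21.5, 21.3 and 20.1 RPKM in rbMSC and 24.7, 24.4 and 25.8 in rcMSC (log2 fold change 0.25, edgeR adjusted p = 0.00508). Adamts20 had 0.131, 0.156 and 0.111 RPKM in rbMSC and 0.383, 0.556 and 0.407 in rcMSC (log2 fold change 1.76, edgeR adjusted p = 0.000364). Its level stayed low in both groups. Adamts9 fell by 0.36 on the log2 scale (edgeR adjusted p = 0.000558). Adamts4 fell by 0.66 (edgeR adjusted p = 0.0304), a call that was lost without rbMSC replicate 1, 2 or 3 (adjusted p = 0.0583, 0.0857 and 0.0843).

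The 3 procollagen N-propeptidases, which remove the amino-terminal extension of fibrillar procollagens so that fibrils can form, all changed, in different directions. Adamts2 (ENSRNOG00000061484, chromosome 10, 34921049 to 35123821) is the main enzyme for type I procollagen. It had 14.1, 13.7 and 13.2 RPKM in rbMSC and 45.0, 46.1 and 56.1 in rcMSC, a 3.58-fold step (log2 fold change 1.84, SE 0.087, edgeR adjusted p = 1.05e-07). Every rcMSC library was well above every rbMSC library. Adamts3 (ENSRNOG00000027463, chromosome 14, 18231165 to 18435556) had 0.406, 0.183 and 0.22 RPKM in rbMSC and 2.23, 1.83 and 0.898 in rcMSC (log2 fold change 2.63, SE 0.40, edgeR adjusted p = 0.000953).

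Adamts14 (ENSRNOG00000000563, chromosome 20, 29144354 to 29219866) went the other way, with 2.89, 3.13 and 3.43 RPKM in rbMSC and 0.97, 0.798 and 1.31 in rcMSC (log2 fold change -1.62, SE 0.17, edgeR adjusted p = 3.9e-05). Because Adamts2 was much the more abundant, it supplied 2.95% ± 0.0558 of the summed Adamts level in rbMSC and 10.6% ± 1.39 in rcMSC. Of 5 fibrillar procollagen genes, the substrates of this group, 4 were higher in rcMSC and 0 lower (80% called, against 45.8% of all genes). Col1a1 stood at 0.84 and Col3a1 at 0.75 on the log2 scale. The gene not called, Col5a1, stood at 0.036 (edgeR adjusted p = 0.836), but without rcMSC replicate 3 it was called lower (-0.15, adjusted p = 1.12e-05).

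Both enzymes that cut cartilage oligomeric matrix protein fell. Adamts12 (ENSRNOG00000018865, chromosome 2, 60032873 to 60327629) was second in level among Adamts genes in rbMSC but below Adamts2, Adamts10 and Adamts5 in rcMSC, at 48.1, 49.2 and 46.9 RPKM in rbMSC and 14.8, 15.1 and 23.4 in rcMSC. Its level was 2.70-fold higher in rbMSC (-1.43 on the log2 scale, SE 0.18, edgeR adjusted p = 0.000546), and rcMSC replicate 3 was nearest to the rbMSC libraries. Adamts7 (ENSRNOG00000028036, chromosome 8, 90704727 to 90744328) had 3.97, 4.15 and 3.92 RPKM in rbMSC and 1.43, 1.65 and 1.93 in rcMSC (log2 fold change -1.26, edgeR adjusted p = 9.2e-06).

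The remaining Adamts members were lower in level or did not pass. Adamts10, which binds fibrillin microfibrils, had 30.3, 29.7 and 27.04 RPKM in rbMSC and 30.8, 32.0 and 32.7 in rcMSC (log2 fold change 0.13, edgeR adjusted p = 0.0987). Adamts6, its relative, had 18.4 to 19.9 RPKM in rbMSC and 14.0, 14.1 and 21.8 in rcMSC (log2 fold change -0.21, edgeR adjusted p = 0.346). Both passed without rcMSC replicate 3, at 0.12 (adjusted p = 0.0278) for Adamts10 and -0.45 (adjusted p = 3.67e-12) for Adamts6.

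Adamts16 was counted 6 times in the rbMSC libraries and 86 times in the rcMSC libraries. Per count sequenced this ratio was 12.6, and its exact binomial 95% interval of 5.54 to 35.2 covers counting error only. Its fitted log2 value of 3.58 (edgeR adjusted p = 0.000544) moved to 4.44 without rbMSC replicate 3. Adamts17 rose by 0.74 (edgeR adjusted p = 0.0248), a call lost without rbMSC replicate 1 (adjusted p = 0.0857), rbMSC replicate 2 (0.0949) or rcMSC replicate 2 (0.0624). Adamts13, which cuts von Willebrand factor, stood at -0.23 (edgeR adjusted p = 0.221), and its exons share 1320 bases with another row.

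Of the inhibitors, Timp3 and Timp4 rose in rcMSC and Timp1 did not pass. Timp3 (ENSRNOG00000004303, chromosome 7, 17521919 to 17571839) binds to the matrix and is the TIMP that also blocks ADAMTS aggrecanases. It had 24.8, 24.6 and 23.0 RPKM in rbMSC and 45.6, 48.6 and 54.4 in rcMSC. The groups were far apart, with a 2.05-fold step (log2 fold change 1.04, SE 0.077, edgeR adjusted p = 2.54e-06).

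Timp1 (ENSRNOG00000010208, chromosome X, 1212972 to 1217664), a soluble inhibitor of most metalloproteinases, had 75.9, 79.9 and 82.2 RPKM in rbMSC. In rcMSC it had 66.2, 64.2 and 106, so that replicates 1 and 2 lay below all rbMSC libraries and replicate 3 above them. Its log2 fold change was -0.0100 (SE 0.19, edgeR adjusted p = 0.97), and without rcMSC replicate 3 it was -0.28 (adjusted p = 1.38e-05). Timp4 (ENSRNOG00000007955, chromosome 4, 148304490 to 148312558) was scarce, at 0.232, 0.214 and 0.172 RPKM in rbMSC and 0.687, 0.444 and 0.507 in rcMSC (log2 fold change 1.41, SE 0.29, edgeR adjusted p = 0.00299). Its exons share 90 bases with those of Syn2 on the other strand. Timp2 was not analysed here, as no row carried that symbol.

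The balance of protease to inhibitor was formed in each library as the ratio of summed RPKM. It was 7.81, 7.72 and 7.61 for all Mmp genes over Timp1, Timp3 and Timp4 in rbMSC, and 11.7, 12.02 and 8.64 in rcMSC. All rcMSC libraries were above the rbMSC libraries, with mean log2 ratios of 3.41 ± 0.263 and 2.95 ± 0.0183 (SD, n = 3 each). The difference of 0.47 rested on Mmp2: without that gene it was -0.20, and the groups overlapped. It also turned, to -0.28, without Timp1, the most abundant of the 3 inhibitors. These ratios describe sums over chosen genes and were given no test.

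Soluble Mmp genes over the Timps gave log2 ratios of 2.32, 2.31 and 2.29 in rbMSC and 3.12, 3.16 and 2.71 in rcMSC. This difference of 0.69 was -0.60 without Mmp2 and -0.05 without Timp1. Membrane-type Mmp genes over the Timps did not separate the groups, with 1.49, 1.46 and 1.45 in rbMSC and 1.56, 1.63 and 1.06 in rcMSC. Their difference was -0.05, and 0.13 without rcMSC replicate 3. On CPM in place of RPKM the groups did separate, with rcMSC lower (2.83, 2.82 and 2.83 in rbMSC, 2.72, 2.77 and 2.30 in rcMSC). They also separated with rcMSC lower when Timp1 was left out, by -0.79.

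The summed Adamts level was 464 ± 6.39 RPKM in rbMSC and 465 ± 5.79 in rcMSC, and the groups overlapped. This sum also holds Adamts genes other than aggrecanases. Its ratio to Timp3 was 18.9, 18.9 and 19.8 in rbMSC and 10.1, 9.70 and 8.48 in rcMSC. Every rcMSC library was thus lower, by a mean log2 difference of -1.03. The difference lay between -1.13 and -0.93 under the settings tried. Set against all 3 Timps, the Adamts sum gave log2 ratios of 2.22, 2.15 and 2.12 in rbMSC and 2.04, 2.06 and 1.52 in rcMSC, a difference of -0.29 that was 0.044 without Timp3.

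**Figure D4:**
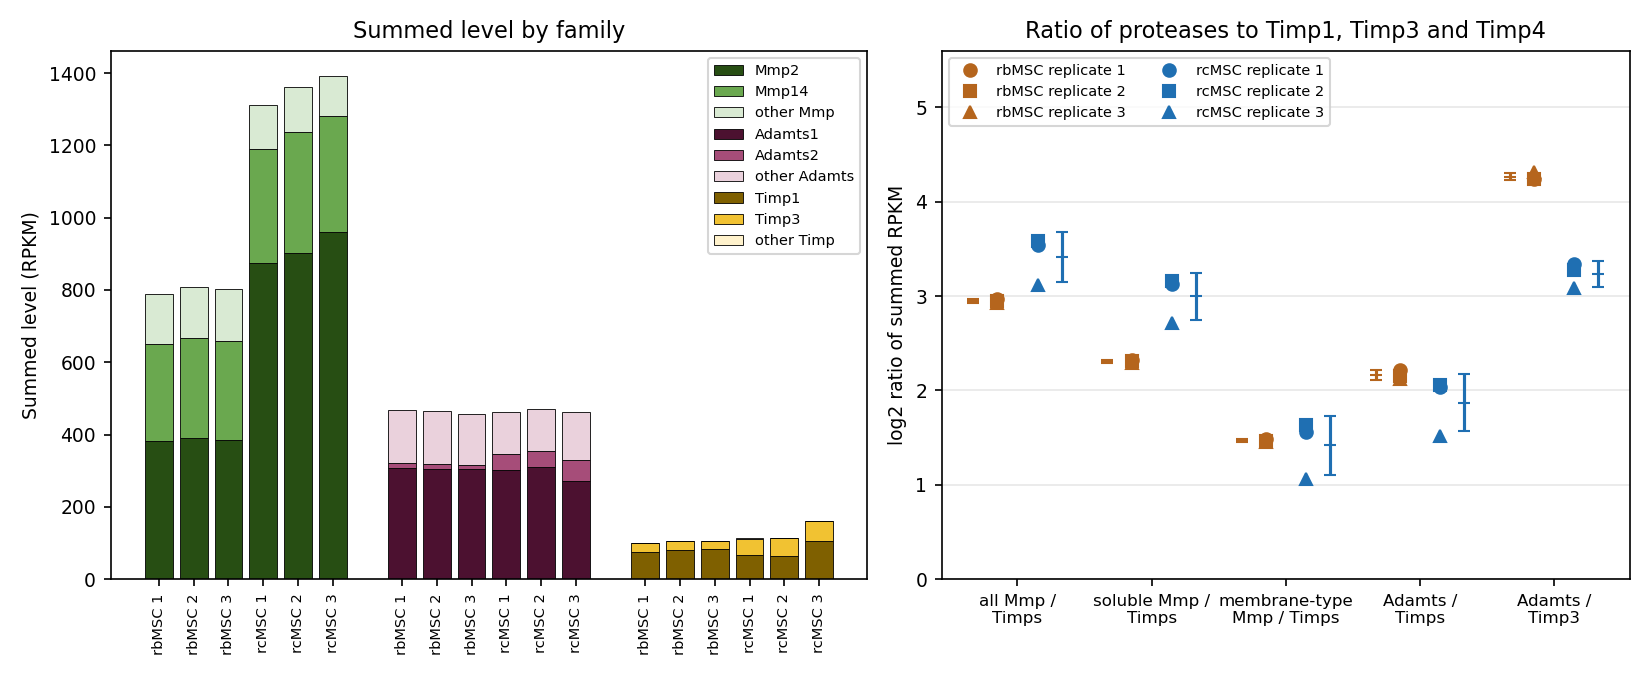
Left, summed level (RPKM, bars from 0) of the Mmp, Adamts and Timp members in each library, with the leading members in colour. Right, log2 ratio of summed protease level to the Timps or to Timp3 in each library (points), with mean and SD (bars); Mmp over Timps is higher in rcMSC (blue) and Adamts over Timp3 lower.

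A row beside the rule bears on these ratios. On chromosome 10, the row under the symbol Cep295nl (103531505 to 103590611) is the only row lying wholly between Usp36 and Lgals3bp. The row of Cant1 (103531504 to 103650109, on the same strand) spans that whole interval and reaches past Lgals3bp. In the RefSeq gene table (assembly GRCr8) Cep295nl lies inside the span of Timp2. The Cep295nl row had 108, 109 and 110.3 RPKM in rbMSC and 159.6, 159.5 and 148 in rcMSC (log2 fold change 0.51, SE 0.057, edgeR adjusted p = 5.03e-05). Which gene its reads came from was not tested. With it counted among the inhibitors, an alternative chosen after seeing the data, the log2 difference was 0.34 for Mmp over inhibitors and -0.41 for Adamts over inhibitors. For membrane-type Mmp genes it was -0.17, with rcMSC lower in every library. Counting the row also lowered the ratios themselves. The mean log2 ratio of Mmp over inhibitors was 1.91 in rbMSC and 2.25 in rcMSC, against 2.95 and 3.41 without the row. On CPM this ratio was 0.59 and 0.89, against 4.37 and 4.70.

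Partners and substrates of these proteases were taken from 11 lists with 57 genes in the table. Of the 49 tested, 21 were higher and 16 lower in rcMSC (75.5% called, against 45.8% of all genes), with a median log2 fold change of 0.09. Inhibitors outside the TIMP family went in opposite directions. A2m (alpha-2-macroglobulin), which traps proteases of every class, had 24.0, 26.0 and 24.5 CPM in rbMSC and 180.5, 180.2 and 229 in rcMSC (log2 fold change 2.98, edgeR adjusted p = 1.3e-08). Tfpi2, an inhibitor of serine proteases, fell, at 8.60 ± 0.0901 CPM in rbMSC and 1.67 ± 0.346 in rcMSC (-2.35 on the log2 scale, edgeR adjusted p = 2.2e-06). Reck, a membrane-bound inhibitor of metalloproteinases, stood at -0.03 (edgeR adjusted p = 0.819), and at -0.13 without rcMSC replicate 3 (adjusted p = 0.0265).

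The proprotein convertases, which cut the precursors of membrane-type Mmp and Adamts enzymes, split as 2 higher and 2 lower. Their share called was 100%, against 45.8% of all genes. Pcsk5 had 43.1 ± 2.27 CPM in rbMSC and 285 ± 14.9 in rcMSC (2.72 on the log2 scale, edgeR adjusted p = 1.12e-09), and Furin fell by 0.76 on the log2 scale (edgeR adjusted p = 1.51e-05). The lower call of Pcsk7 was lost without any 1 library other than rcMSC replicate 3 (adjusted p = 0.0877 to 0.139). In the plasminogen system, whose product plasmin activates several Mmp precursors, 3 of 7 were lower and 0 higher. The lower ones were Plau, Plaur and Serpine2, and the share called was 42.9%, near the 45.8% of all genes. Serpinb2, which passed the low-count filter only through rbMSC, was also called lower without rcMSC replicate 3 (-1.29, edgeR adjusted p = 0.0329).

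All 5 inducers and clearance receptors were higher (100% called, against 45.8% of all genes), by 0.16 (Bsg) to 1.49 (Spock1) on the log2 scale. The calls of Spock1 and Bsg were lost without rbMSC replicate 2 (edgeR adjusted p = 0.0514 and 0.0967). Bsg was likewise lost without any 1 library other than rcMSC replicate 3 (adjusted p = 0.0632 to 0.158). Of the ADAMTS-like proteins, which lack the protease domain, 4 of 5 were higher and 1 lower (100% called, against 45.8% of all genes). Adamtsl1 and Adamtsl3 rose by 2.38 and 1.16 (edgeR adjusted p = 0.00256 and 6.55e-08), and Papln by 1.30, a call lost without rbMSC replicate 2 or 3 (adjusted p = 0.0833 and 0.0776). Papln passed the low-count filter only through rcMSC, where it was higher. The call of Adamtsl5 was lost without rbMSC replicate 1 or 3 (adjusted p = 0.1 and 0.0866).

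Of the ADAM sheddases, 1 of 8 was higher, Adam33 at 2.41 (edgeR adjusted p = 3.92e-09), and 3 were lower. The share called was 50%, near the 45.8% of all genes. Of the lower calls, that of Adam17 was lost without any 1 library other than rcMSC replicate 3 (adjusted p = 0.0534 to 0.0637). Adam12 was also called lower without rcMSC replicate 3 (-0.25, adjusted p = 2.09e-10). Tll1, which removes the carboxy-terminal extension of procollagens, had 981 ± 23.4 CPM in rbMSC and 131 ± 21.4 in rcMSC (-2.91 on the log2 scale, edgeR adjusted p = 6.05e-08), while its relative Bmp1 rose by 0.21 (edgeR adjusted p = 0.0268). The call of Bmp1 was lost without rbMSC replicate 1, 2 or 3 (adjusted p = 0.0824, 0.0863 and 0.0984). Of 2 other secreted or surface metalloproteinases, Mme fell by 1.02 on the log2 scale (edgeR adjusted p = 2.16e-06) and Pappa2 rose by 0.57.

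Of the proteoglycan substrates tested, Acan (aggrecan) fell from 334, 327 and 314 CPM in rbMSC to 12.5, 14.8 and 40.1 in rcMSC, and Vcan (versican) rose by 0.26 on the log2 scale (edgeR adjusted p = 0.00709). The value of Acan was -3.86 (edgeR adjusted p = 0.00236), and leaving out rcMSC replicate 3 it was -4.58. Eln, the substrate of Mmp12 for which that enzyme is named, fell, at 47.1 ± 1.26 CPM in rbMSC and 1.69 ± 0.656 in rcMSC (-4.81 on the log2 scale, edgeR adjusted p = 2.92e-08). The basement membrane collagens Col4a1 and Col4a2 fell by 0.53 and 0.58. Col2a1 rose by 2.14 (edgeR adjusted p = 0.0144), and by 1.44 when rcMSC replicate 3 was left out. The plot of partner genes shows all lists.

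**Figure D5:**
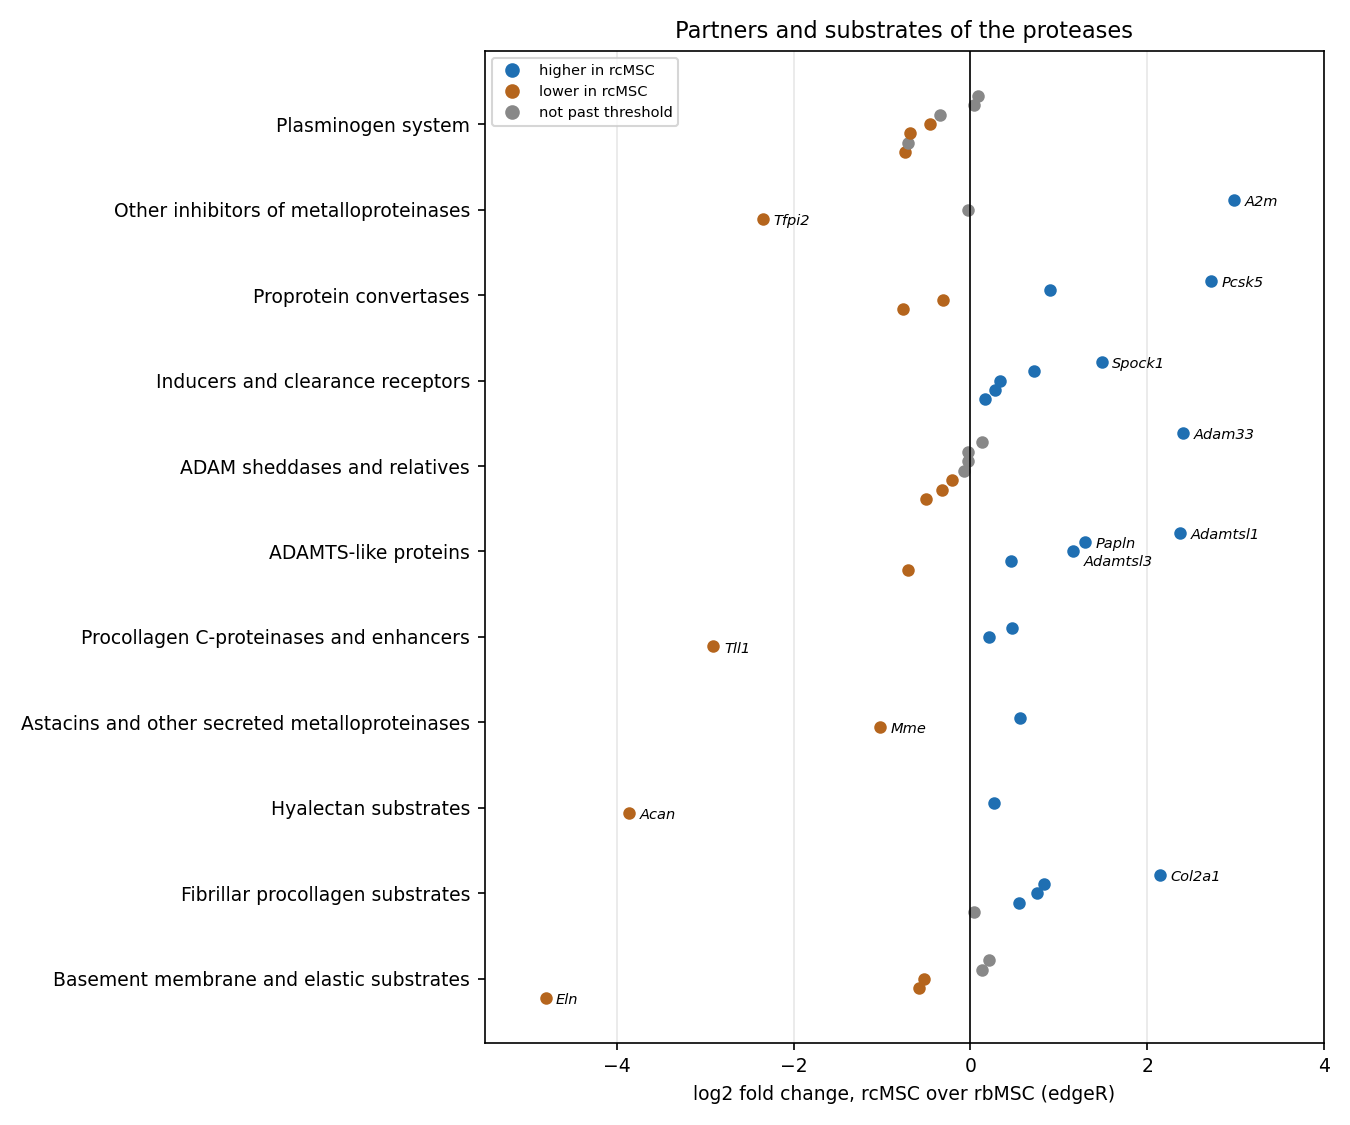
Log2 fold change of rcMSC over rbMSC (edgeR) for the 49 tested partner and substrate genes, by list; blue, brown and grey mark genes called higher, called lower and not past the threshold. Named genes changed at least 2-fold, from Eln at -4.81 to A2m at 2.98.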

How the data were processed

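Per the labels' protocols, reads were paired and 150 nt long, and the authors' steps were trimming (Trim Galore 0.6.7, Trimmomatic 0.39), alignment to mRatBN7.2 (STAR 2.7.9a) and gene counting (featureCounts 2.0.1). The submitters' processing notes also list DESeq2 1.20.0. The values they deposited are raw read counts for each gene. Strand setting, the treatment of multi-mapped reads and the annotation release: not given in the sources used here. The Length column, per the file headers, was used for RPKM.

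Libraries were grouped by title. Counts of 14836 genes past filterByExpr were fitted with edgeR 4.0.16 (R 4.3.3; quasi-likelihood F test, TMM scaling, robust dispersions, Benjamini-Hochberg adjustment over all of them). SE is the size of the log2 difference over the root of its F value. RefSeq gene symbols (GRCr8) matched 45 members.

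The members, gene lists and tests were chosen with earlier results of these data known. Values in every library were to be given for each Timp, each member changed at least 2-fold, and the 5 Mmp and 5 Adamts genes of highest level. Partner genes were named where called and changed at least 2-fold, up to 3 a list; any further gene was picked with its values in view. Alternatives were other scalings, filters, DESeq2 1.42.0, non-robust dispersions, a replicate block, and leaving out each library in turn.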

Additional observations from a re-analysis of the deposited data

How the results depend on the processing

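Of 36 tested members, 0 changed direction or call under DESeq2, the other scalings, no filter or non-robust dispersions, and 25 of the 33 left under a filter of 1 CPM were called. Without 1 library, 23 to 31 members were called, 12 to 16 of them higher and 11 to 15 lower, and 5336 to 9070 genes of all. Adamts1 ranged from -0.086 to 0.0025 and Timp1 from -0.28 to 0.12.

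The log2 difference of Mmp over Timps was -0.20 without Mmp2, -0.28 without Timp1 and 0.80 without Timp3. For soluble Mmp genes these were -0.60, -0.052 and 1.03. For membrane-type genes it was -0.79 without Timp1, 0.29 without Timp3 and -0.16 to 0.13 without 1 library. For Adamts it was -1.03 without Timp1, 0.044 without Timp3 and -0.61 on CPM with the Cep295nl row among the inhibitors. The sums differ by construction in these settings.

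Same-numbered libraries did not deviate together (r over genes -0.044 to 0.018, against -0.048 to 0.055 for other pairs). With 3 libraries per group, this cannot show whether equal numbers share a source. With the replicate number as a block, 26 members and 6297 genes of all were called; Mmp15 was the member lost (0.88, edgeR adjusted p = 0.0559), and Bsg and Bmp1 were lost among the partners (adjusted p = 0.0913 and 0.051). Depth limits the 8 tested members under 1 RPKM: Mmp9, Mmp15, Mmp24, Mmp25, Adamts16, Adamts17, Adamts20 and Timp4. Timp4, for example, had 46 counts over the rbMSC libraries and 141 over the rcMSC libraries. In these libraries 1 count was worth 0.0364 to 0.0468 CPM.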
